A study of Cyanidioschyzon merolae strain 10D with 12 samples.

Results

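Transcripts of PCNA, of ribonucleotide reductase (RNR) and of histone H4 are read here as markers of S phase, the part of the cell cycle in which DNA is copied, in the red alga Cyanidioschyzon merolae. The genes were taken by identifier from the table of 4970 genes: CMS101C for PCNA, CML050C for RNR, and CMN166C and CMN169C for histone H4. They are 4 genes but 3 measurements, since the H4 copies carry the same values in every library. Names rest on the Arabidopsis protein that the deposited table lists as most similar, with E-values of 7e-105 for CMS101C (PCNA2), 2e-155 for CML050C (TSO2, an RNR small subunit) and 8e-52 for both H4 copies. The functional category listed for CMS101C is that of a putative transcription regulator, which differs from its description as a DNA polymerase processivity factor.

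The RNA came from wild-type cells of strain 10D, a unicellular alga of hot acidic springs, in batch culture at 30 °C under 90 µmol photons m-2 s-1 of light. The question was how transcripts respond when CO2 in the aeration is lowered and raised again. Cultures started at an optical density of 0.7 and had 24 h at 5% CO2 before sampling began. HC 0 h cells were still at 5% CO2, LC 3 h cells had spent 3 h at 0.04% CO2 and LC 24 h cells 24 h, and recovery cells had then been back at 5% CO2 for a further 24 h. Each of these 4 groups had 3 libraries. The labels call the 3 libraries biological triplicates. They also name 3 cultures followed through the shifts, without saying that replicate numbers mark them. The main tests treat the libraries as independent, and the replicate number as a block was an alternative. No library came from cultures held at 5% CO2 to the later times, so CO2 and time in culture cannot be told apart. The labels name no synchronisation of the cultures and the cell-cycle stage was not measured, so fewer cells in S phase and less of a transcript per cell cannot be told apart.

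PCNA is a ring that slides on DNA and holds the polymerases to their template. RNR reduces ribonucleotides to deoxyribonucleotides, the building blocks of DNA, and works as a complex of large and small subunits. Histone H4 is 1 of the 4 core histones on which new DNA is wrapped into nucleosomes. In many eukaryotes these transcripts accumulate as cells enter S phase and decline after it. C. merolae has a nucleus, a plastid and a mitochondrion that divide in a fixed order, which has made it a model for organelle division.

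The HC 0 h libraries held 9671514 to 11367648 estimated reads, the LC 3 h libraries 9887991 to 12063877, the LC 24 h libraries 13366144 to 22881427 and the recovery libraries 24296458 to 28346661. Reads behind the markers numbered 1347 to 14580 per library for PCNA, 833 to 11233 for the RNR small subunit and 3109 to 18279 for each H4 copy, so counting error was small beside the spread between libraries. Levels below are the deposited TPM values, scaled by library size and gene length, which can be set side by side between genes. Differences are log2 changes ± SE from edgeR's quasi-likelihood test on the counts, with Benjamini-Hochberg adjusted p over 4865 tested genes, called at 0.05. All 4 genes passed the filter on low counts.

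Replicate 1 was the highest library in 12 of 12 combinations of marker and group. Over all tested genes it was the highest in 41.3%, 42.1%, 49.9% and 52.7% of cases at HC 0 h, LC 3 h, LC 24 h and recovery. Its excess over the mean of the other replicates was 1.17-fold to 2.13-fold for PCNA, 1.52-fold to 3.21-fold for RNR and 1.10-fold to 1.72-fold for H4. The part of this in the results was not tested beyond leaving the libraries out. Calls of the markers in the comparisons that involve LC 24 h held without these libraries.

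PCNA transcript was 5.02-fold lower at LC 24 h than at HC 0 h, and its recovery values overlapped those of HC 0 h. Its level was 1119, 779 and 685 TPM at HC 0 h, 1123, 531 and 523 TPM at LC 3 h, 203, 162 and 183 TPM at LC 24 h, and 906, 672 and 776 TPM in recovery (replicates 1, 2 and 3 in each group). The LC 24 h libraries lay below all the others, while those of the other groups overlapped. In order of mean level HC 0 h came first (861 ± 228 TPM, SD, n = 3), then recovery (785 ± 117), LC 3 h (726 ± 345) and LC 24 h (183 ± 20.3). Neighbours in this order overlapped except LC 24 h. Among all genes ranked by mean TPM within a group, PCNA held places 176, 215, 1384 and 173 at HC 0 h, LC 3 h, LC 24 h and recovery.

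The RNR small subunit CML050C was likewise lowest at LC 24 h, at a lower level than PCNA throughout. It measured 437, 296 and 278 TPM at HC 0 h, 513, 289 and 239 TPM at LC 3 h, 161, 50.6 and 49.7 TPM at LC 24 h, and 356, 191 and 202 TPM in recovery. The LC 24 h libraries were again the lowest, but replicate 1 stood 3.21-fold above the mean of the other LC 24 h libraries. The order of means was LC 3 h (347 ± 146 TPM), HC 0 h (337 ± 87.4), recovery (249.8 ± 92.5) and LC 24 h (87.0 ± 63.8), and of these neighbours only recovery and LC 24 h did not overlap. By rank it held places 540, 549, 3273 and 732 at HC 0 h, LC 3 h, LC 24 h and recovery.

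Histone H4 was the most abundant of the markers at every time point and the one that changed least at LC 24 h. Each copy measured 3039, 2864 and 2679 TPM at HC 0 h, 4045, 2442 and 2258 TPM at LC 3 h, 1501, 946 and 862 TPM at LC 24 h, and 2906, 1858 and 2061 TPM in recovery. All 3 LC 24 h values were below every other value. Means were 2915 ± 983 TPM at LC 3 h, 2861 ± 180 at HC 0 h, 2275 ± 556 in recovery and 1103 ± 347 at LC 24 h, with overlap between all neighbours but the last pair. H4 ranked 29, 24, 86 and 40 at HC 0 h, LC 3 h, LC 24 h and recovery.

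**Figure D1:**
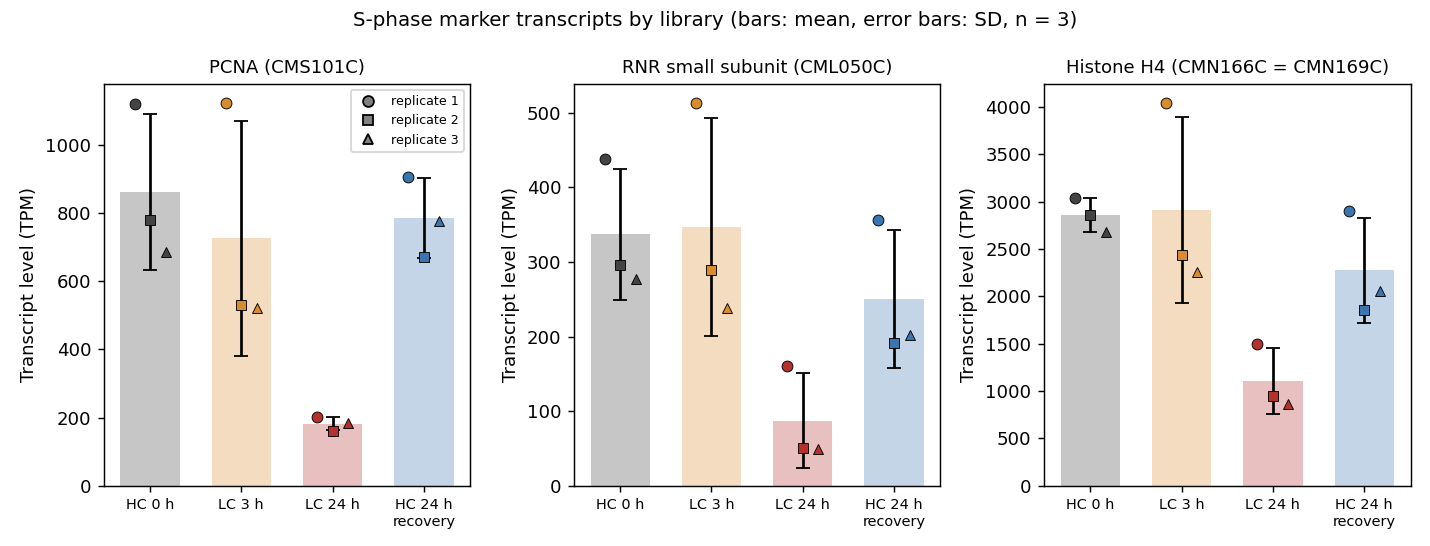
Transcript level in TPM of PCNA, the RNR small subunit and histone H4 in each library. Bars are means, error bars SD (n = 3), and symbols mark replicates 1, 2 and 3; the LC 24 h libraries are the lowest in each panel and replicate 1 is the highest library of every group.

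Some genes shared reads, judged from counts that complement each other, and this bears on how these values can be assigned. No sequences were compared. Counts of CMN166C and CMN169C were identical in all 12 libraries and summed to whole numbers, so the copies cannot be read separately and each carries an equal share of the H4 reads. Counts of CML050C were fractional in 12 libraries and complemented those of CML054C, a gene with no assigned function. CML054C measured 13.1, 2.87 and 5.60 TPM at LC 24 h, against 136, 81.2 and 73.1 TPM at HC 0 h. It was lower at LC 24 h by a log2 change of -3.77 ± 0.55 (edgeR adjusted p = 1.60e-04). With the counts of CML050C and CML054C summed, the log2 change of RNR at LC 24 h against HC 0 h was -2.12 (edgeR adjusted p = 0.00252), close to the value below.

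After 3 h at low CO2 the markers were not called. Of the 4 genes, 0 were called, where 41.4% of all tested genes were. The log2 change at LC 3 h against HC 0 h was -0.10 ± 0.27 for PCNA (edgeR adjusted p = 0.807), 0.19 ± 0.45 for RNR (adjusted p = 0.787) and 0.17 ± 0.25 for H4 (adjusted p = 0.633). Unadjusted, 0 of the 4 genes had a p under 0.05, and DESeq2 called 0. These p-values do not show that the levels were the same. PCNA was the marker whose result turned on a library: without LC 3 h replicate 1 its log2 change was -0.56 (edgeR adjusted p = 0.0314), and without replicate 1 of every group it was -0.34 (adjusted p = 0.00921), both lower at LC 3 h.

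Between 3 h and 24 h all the markers fell. Of the 4 genes, 4 were lower at LC 24 h than at LC 3 h, where 53.2% of all tested genes were called and 29.5% were lower. The log2 change was -2.22 ± 0.29 for PCNA (edgeR adjusted p = 1.40e-04), -2.24 ± 0.47 for RNR (adjusted p = 0.00274) and -1.64 ± 0.26 for H4 (adjusted p = 4.12e-04). No library of LC 24 h overlapped one of LC 3 h for these genes. The share of all tested genes without overlap was not counted, here or in the comparisons below. Without LC 24 h replicate 1 the RNR change was -3.003.

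Against HC 0 h, the markers were 2.78-fold to 5.02-fold lower after 24 h at low CO2. Of the 4 genes, 4 were called lower, where 63% of all tested genes were called and 30.3% were lower. The groups did not overlap for these genes, and how many of all tested genes share that was not counted. PCNA was 5.02-fold lower (log2 change -2.33 ± 0.29, edgeR adjusted p = 4.72e-05). RNR was 4.16-fold lower (log2 change -2.06 ± 0.47, edgeR adjusted p = 0.00309), and without LC 24 h replicate 1, where it was highest, its log2 change was -2.82. H4 was 2.78-fold lower (log2 change -1.47 ± 0.25, edgeR adjusted p = 4.72e-04). In the authors' deposited table the log2 fold changes are -2.23, -1.94 and -1.37 for PCNA, RNR and H4, with q-values of 3.78e-24, 1.03e-04 and 1.88e-07.

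The markers were higher in recovery than at LC 24 h. Of the 4 genes, 4 were called higher, where 49.6% of all tested genes were called and 24.7% were higher. PCNA was 4.87-fold higher (log2 change 2.28 ± 0.29, edgeR adjusted p = 1.11e-04), RNR 3.27-fold (1.71 ± 0.46, adjusted p = 0.0111) and H4 2.34-fold (1.23 ± 0.25, adjusted p = 0.00238), with no overlap between the groups. Without LC 24 h replicate 1 the RNR change was 2.47. The comparisons above share the LC 24 h libraries.

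Recovery and HC 0 h libraries overlapped for each marker. The log2 change was -0.04 ± 0.27 for PCNA (edgeR adjusted p = 0.931), -0.35 ± 0.45 for RNR (adjusted p = 0.653) and -0.25 ± 0.25 for H4 (adjusted p = 0.55). Of the 4 genes 0 were called by edgeR or by DESeq2, and 0 had an unadjusted p under 0.05, where edgeR called 14.1% of all tested genes (7.24% higher and 6.82% lower). Without replicate 1 of every group RNR and H4 were lower in recovery, by log2 changes of -0.45 (edgeR adjusted p = 7.10e-04) and -0.41 (adjusted p = 8.08e-04). PCNA stayed uncalled in all 15 alternatives, between -0.18 and 0.17.

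Ratios between the markers were compared by library, where 3 against 3 cannot give an exact p below 0.1 and no adjusted p was under 0.05. The log2 ratio of PCNA to H4 in TPM was -2.56 ± 0.33 at LC 24 h, against -1.76 ± 0.28 at HC 0 h (SD, n = 3), a difference of -0.79 without overlap (exact permutation test, two-sided, p = 0.1, adjusted over 15 tests 0.375). In recovery it was 1.04 above LC 24 h (exact p = 0.1), and at LC 24 h it differed by -0.50 from LC 3 h (exact p = 0.1), both without overlap. The ratio of RNR to H4 overlapped between LC 24 h and HC 0 h, with a difference of -0.74 (exact p = 0.3). The ratio of PCNA to RNR differed by -0.31 between LC 3 h and HC 0 h without overlap (exact p = 0.1), and overlapped in the other 4 comparisons.

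Other RNR genes moved to different extents. The large subunit CMM323C, which carries the catalytic site, measured 182 ± 21.0 TPM at LC 24 h, against 493 ± 80.8 TPM at HC 0 h (log2 change -1.53 ± 0.17, edgeR adjusted p = 2.14e-05). In recovery it measured 503 ± 69.7 TPM, a log2 change of 1.65 ± 0.17 over LC 24 h (edgeR adjusted p = 3.07e-05). A further small subunit gene, CMK035C, matched to RNR2A of Arabidopsis, fell less, with 128 ± 10.8 TPM at LC 24 h, against 160.3 ± 13.9 TPM at HC 0 h (log2 change -0.42 ± 0.11, edgeR adjusted p = 0.00599). Its recovery level of 127 ± 3.41 TPM was not called against LC 24 h (log2 change 0.17 ± 0.11, edgeR adjusted p = 0.21). Its counts were whole in every library, so no sign of reads divided with CML050C was seen. The 2 small subunit genes were thus 87.0 TPM for CML050C and 128 TPM for CMK035C at LC 24 h, where at HC 0 h they were 337 and 160.3 TPM.

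Of 9 genes matched to deoxyribonucleotide synthesis by their descriptions, 4 were lower at LC 24 h than at HC 0 h, where 30.3% of all tested genes were, and the other 5 were not called (median log2 change -0.39, against 0.02 over all tested genes). CML050C is not among the 9, because its description words the enzyme differently. The bifunctional dihydrofolate reductase-thymidylate synthase CMS462C, which makes the thymine precursor dTMP, was at 96.7 ± 2.56 TPM at LC 24 h, against 118.8 ± 11.5 TPM at HC 0 h (log2 change -0.39 ± 0.10, edgeR adjusted p = 0.0048). The dUTPase CMO126C, which keeps uracil out of DNA, was at 126.8 ± 30.1 TPM, against 160.6 ± 21.4 TPM (log2 change -0.43 ± 0.19, edgeR adjusted p = 0.0652). The thymidylate kinase CML322C, the next step after thymidylate synthase, had a log2 change of 0.00 ± 0.07 (adjusted p = 0.978). A deaminase-family gene, CMO275C, completes the 4, with -0.43 ± 0.13 (adjusted p = 0.0161), a call lost without LC 24 h replicate 1 (-0.30, adjusted p = 0.0533). In recovery against LC 24 h 4 of the 9 were higher and 1 lower. The shares of all tested genes were 24.7% and 24.9%. Among the higher ones of the 9 were CMO126C (0.92 ± 0.19, edgeR adjusted p = 0.00221) and CMS462C (0.61 ± 0.10, adjusted p = 4.71e-04). The lower one, CMQ291C, was not called without LC 24 h replicate 2 or 3, or when any 1 recovery library was left out.

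The same list was mixed at LC 3 h against HC 0 h, with 3 higher and 2 lower, where 22.1% of all tested genes were higher and 19.3% lower. By limma on TPM 1 was higher and 5 lower. The deaminase-family gene CMQ291C reached 146 ± 26.0 TPM at LC 3 h, against 78.2 ± 1.67 TPM at HC 0 h (log2 change 1.04 ± 0.12, edgeR adjusted p = 5.22e-05). Leaving out replicate 2 of HC 0 h gave 0 lower genes, leaving out its replicate 3 or replicate 2 or 3 of LC 3 h gave 1, and leaving out replicate 1 of LC 3 h gave 4.

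Most core histone genes were lower at LC 24 h, and H4 had the lowest log2 change. Of 10 histone genes 8 were lower than at HC 0 h, where 30.3% of all tested genes were. The median log2 change was -0.69, and apart from the H4 copies 6 of 8 were lower, also with -0.69. The H3 copies CMN165C and CMN176C carry equal counts, so the 8 calls are 6 measurements. Each H3 copy was at 2381 ± 207 TPM at LC 24 h, against 3592 ± 191 TPM at HC 0 h (log2 change -0.69 ± 0.15, edgeR adjusted p = 0.00219). The H2A genes CMN170C and CMN174C, which divide reads between them, changed by -1.19 ± 0.23 (adjusted p = 0.00113) and -0.85 ± 0.23 (adjusted p = 0.00731). The H3 gene CME099C was at 76.5 ± 42.6 TPM at LC 24 h, against 115.8 ± 13.1 TPM at HC 0 h, with overlap (log2 change -0.69 ± 0.28, edgeR adjusted p = 0.0486). Its call was lost without any 1 of HC 0 h replicates 1, 2 and 3 or LC 24 h replicates 2 and 3 (adjusted p = 0.102, 0.0601, 0.113, 0.158 and 0.161), and when only these 2 groups were fitted (0.17).

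H2B was carried almost wholly by CMN145C, the most abundant histone transcript at HC 0 h by single gene, with the copies of H3 and of H4 each counted apart. It was at 3235 ± 552 TPM at LC 24 h, against 4668 ± 165 TPM at HC 0 h (log2 change -0.63 ± 0.21, edgeR adjusted p = 0.0233). That call was lost when replicate 2 of HC 0 h was left out (-0.59, adjusted p = 0.0647), likewise for replicate 2 or 3 of LC 24 h (-0.60 and -0.54, adjusted p = 0.0669 and 0.0853), and by limma on TPM (-0.54, adjusted p = 0.0777). The second H2B gene, CMN173C, was at 73.2 ± 9.38 TPM, against 50.6 ± 7.15 TPM, and was not called (0.45 ± 0.22, edgeR adjusted p = 0.0923). Its reads were divided with CMN177C, described as an arginine-tRNA ligase. The H2A gene CMR457C, matched to HTA11 of Arabidopsis, was at 591 ± 199 TPM, against 659 ± 58.4 TPM (log2 change -0.25 ± 0.23, edgeR adjusted p = 0.349).

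**Figure D2:**
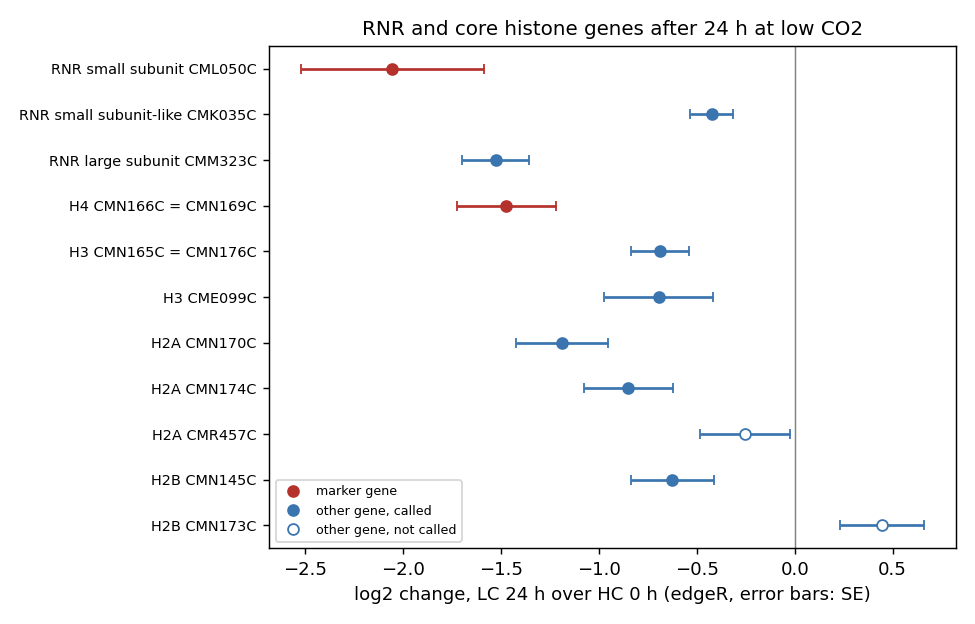
Log2 change at LC 24 h over HC 0 h of the RNR and core histone genes, from edgeR, with SE as error bars; red marks CML050C and H4, open circles genes that were not called. H4 at -1.47 lies furthest to the left of the histones, and the small subunit genes CML050C and CMK035C lie at -2.06 and -0.42.

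At LC 3 h against HC 0 h edgeR called 41.4% of all tested genes. It called 0 of the 10 histone genes, with a median log2 change of 0.23. Unadjusted, 2 had a p under 0.05, both higher. They were the H3 copies CMN165C and CMN176C, which carry equal counts and are not separate measurements. DESeq2 called 2 higher, and limma on TPM called 0. With the replicate number as a block edgeR called 3 higher. Where 24.7% of all tested genes were higher in recovery than at LC 24 h, 7 of the 10 histone genes were, with a median of 0.80. They included CMN145C (0.89 ± 0.21, edgeR adjusted p = 0.00521), CMN170C (1.14 ± 0.23, adjusted p = 0.00235) and the H3 copies (0.71 ± 0.15, adjusted p = 0.00268). Both H3 copies and both H4 copies are among the 7, so these calls are fewer measurements than genes.

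Most of the histone genes lie close together in the RefSeq gene order of assembly ASM9120v1. The H4 copy CMN169C stands between the H3 gene CMN165C and the H2A gene CMN170C, followed by the H2B gene CMN145C. The other H4 copy, CMN166C, lies 8 places beyond CMN169C, next to a protein kinase gene, CMN167C, and before the H2B, H2A and H3 genes CMN173C, CMN174C and CMN176C. Genes that are not histones in this stretch moved in both directions at LC 24 h: the kinase CMN167C changed by 0.01 ± 0.08 (edgeR adjusted p = 0.934), CMN148C, described as ribosomal protein S3, by -0.99 ± 0.11 (adjusted p = 2.59e-05), and CMN171C by 0.59 ± 0.08 (adjusted p = 8.84e-05). The stretch was chosen by position, and its values are given as a description.

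Histone chaperones deliver histones to replicating or transcribed DNA. Of 5 such genes 4 were lower at LC 24 h than at HC 0 h, where 30.3% of all tested genes were. The median log2 change over the 5 was -0.998. In recovery 5 of 5 were higher than at LC 24 h, where 24.7% of all tested genes were. FAS2 (CMP030C), a subunit of the chromatin assembly factor that PCNA recruits to newly made DNA, was at 20.8 ± 10.9 TPM, against 82.4 ± 21.7 TPM (log2 change -2.07 ± 0.34, edgeR adjusted p = 3.54e-04). FAS1 (CMK062C), its partner, changed by -1.89 ± 0.33 (adjusted p = 6.06e-04), but that name rests on a weak match with an E-value of 0.021. SSRP1 (CMS034C) and SPT16 (CMS358C), the subunits of the FACT complex, changed by -0.998 ± 0.136 and -0.63 ± 0.14 (adjusted p = 9.25e-05 and 0.00217). ASF1 (CMG143C), which carries H3 and H4 together, had -0.38 ± 0.21 (adjusted p = 0.131), and its call in recovery was lost without LC 24 h replicate 2 or 3 or recovery replicate 1 (adjusted p = 0.0698, 0.0654 and 0.098).

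The replication machinery list, which contains PCNA, held 39 tested genes. Of these, 20 were lower and 6 higher at LC 24 h than at HC 0 h, with a median log2 change of -0.57. The shares of all tested genes were 30.3% lower and 32.7% higher. Without PCNA 19 of 38 were lower and 6 higher, with a median of -0.46. Falls included the origin recognition subunits ORC4 (CMT300C, -1.95 ± 0.34, edgeR adjusted p = 5.26e-04) and ORC5 (CML148C, -1.65 ± 0.27, adjusted p = 3.56e-04), and MCM8 (CMT087C, -2.35 ± 0.63, adjusted p = 0.00773). SLD5 (CMR406C), a subunit of the GINS complex of the replicative helicase, changed by -1.83 ± 0.47 (adjusted p = 0.00615). PCNA and MCM8 had the lowest log2 changes of the list, and MCM8 was not called when only these 2 groups were fitted (-2.34, adjusted p = 0.0617), nor was SLD5 (-1.83, adjusted p = 0.0522).

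MCM2 to MCM7 form the ring-shaped core of the replicative helicase. These 6 genes of the list were singled out after their values were seen. All 6 were lower at LC 24 h than at HC 0 h, by -1.65 to -0.70. All 6 were higher in recovery than at LC 24 h, by 1.07 to 1.91. Of all tested genes 30.3% were lower in the first comparison and 24.7% higher in the second. MCM6 (CMJ261C) was at 60.1 ± 31.6 TPM at LC 24 h, against 175.8 ± 36.1 TPM at HC 0 h, and at 198 ± 26.8 TPM in recovery. The changes of these helicase genes in recovery against HC 0 h lay between 0.23 and 0.37, and their edgeR adjusted p between 0.166 and 0.582.

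The 6 higher members of the list include genes of other functions, and the lower members were not sorted by function in the same way. CML010C and CMR274C match SPO11-2, a relative of topoisomerases that cuts DNA in meiosis, and rose by 1.15 ± 0.14 and 1.14 ± 0.11 (edgeR adjusted p = 4.97e-05 and 1.02e-05). CMG079C matches ERCC1, a DNA repair nuclease subunit, and rose by 0.58 ± 0.07 (adjusted p = 2.59e-05). TOP1 (CMM263C), which relaxes supercoils, rose by 0.41 ± 0.09 (adjusted p = 0.00215). RFC1 (CMR028C), a subunit of the clamp loader that places PCNA on DNA, was at 152 TPM at LC 24 h, against 121.5 TPM at HC 0 h, and rose by 0.23 ± 0.06 (adjusted p = 0.0042). The other replication factor C matches of the list, CMF110C and CMO145C, were lower, by -0.57 and -0.34 (edgeR adjusted p = 0.00171 and 0.0121). The topoisomerase-family gene CMI252C completes the 6, with 0.49 ± 0.15 (adjusted p = 0.0137), a call lost without HC 0 h replicate 1 (0.0545).

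At LC 3 h the same 39 genes had 7 members higher and 1 lower than at HC 0 h, with a median log2 change of 0.15, where 22.1% of all tested genes were higher and 19.3% lower. With the replicate number as a block these counts were 12 and 2. ORC2 (CMS058C), a subunit of the origin recognition complex, was at 213 ± 15.1 TPM at LC 3 h, against 78.4 ± 6.59 TPM at HC 0 h (log2 change 1.59 ± 0.08, edgeR adjusted p = 2.52e-07). It was at 79.1 ± 4.36 TPM at LC 24 h. The primase CMO313C, which lays down the RNA primers of replication, was at 307 ± 16.7 TPM at LC 3 h, against 222.5 ± 15.04 TPM at HC 0 h (log2 change 0.61 ± 0.08, edgeR adjusted p = 1.34e-04). The lower gene was DPB2 (CMH082C, -0.78 ± 0.26, edgeR adjusted p = 0.0333), a subunit of DNA polymerase epsilon. Its call was lost when replicate 1 or 2 of HC 0 h was left out (adjusted p = 0.106 and 0.0583), and likewise for replicate 2 or 3 of LC 3 h (0.132 and 0.128). The list then had 0 lower genes, except that leaving out HC 0 h replicate 2 gave 1, and leaving out LC 3 h replicate 1 gave 2.

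**Figure D3:**
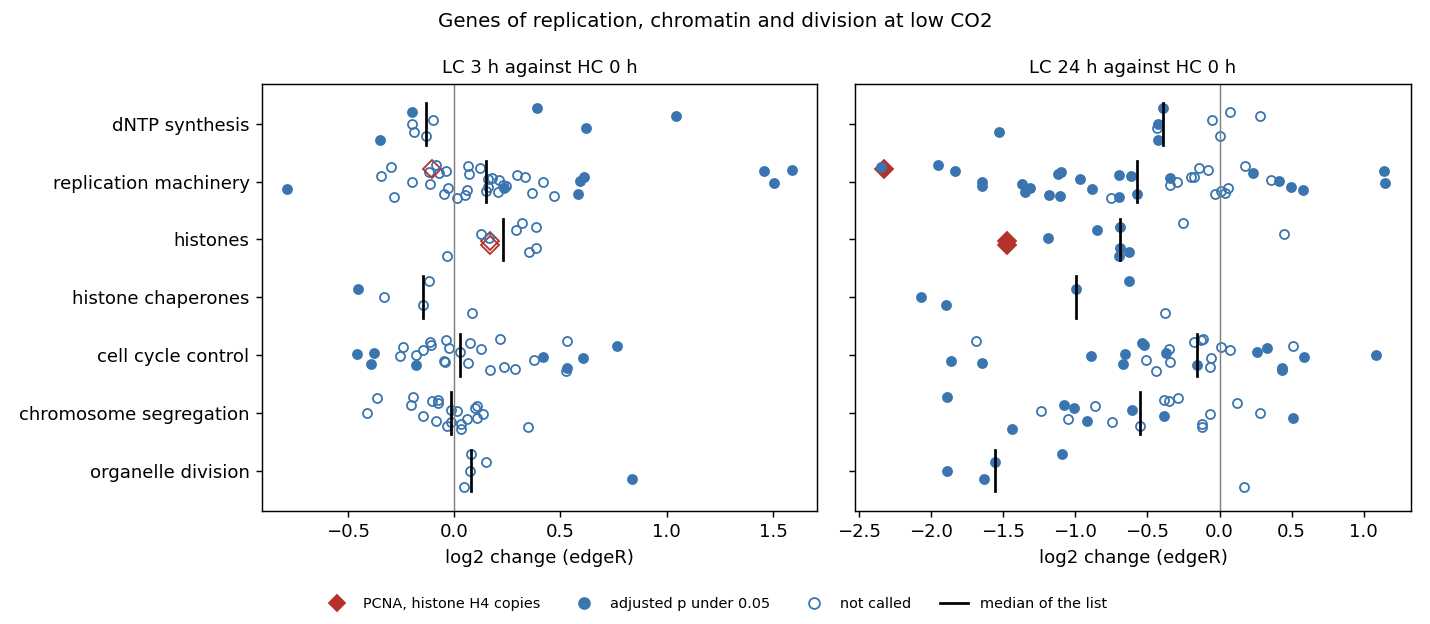
Log2 change (edgeR) of each tested gene in 7 lists, at LC 3 h and at LC 24 h against HC 0 h; filled symbols have an adjusted p under 0.05, red diamonds are PCNA and the H4 copies, and black bars are list medians. At LC 24 h the medians lie between -1.56 and -0.16, and at LC 3 h between -0.15 and 0.23.

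Cell cycle control genes moved in both directions, with 9 lower and 7 higher of 29 at LC 24 h (median -0.16). Over all tested genes 30.3% were lower and 32.7% higher, so the count of lower genes was near the background. Without LC 24 h replicate 1, 16 were lower. The A-type cyclin match CMI203C (CYCA31) was at 31.6 ± 10.8 TPM, against 107.9 ± 11.5 TPM at HC 0 h (log2 change -1.87 ± 0.23, edgeR adjusted p = 4.72e-05). The B-type cyclin-dependent kinase match CMH128C changed by -1.65 ± 0.48 (adjusted p = 0.0114), a call lost when only these 2 groups were fitted (adjusted p = 0.0777). In the other direction, the cyclin match CML219C (CYCA1) was at 837 ± 39.5 TPM, against 369 ± 38.0 TPM (log2 change 1.09 ± 0.13, edgeR adjusted p = 2.99e-05). The retinoblastoma-related gene CMT038C, which in plants and animals holds back entry into S phase, changed by -0.54 ± 0.14 (adjusted p = 0.00695), and the E2F match CMT067C, of the factors it binds, had -0.17 ± 0.12 (adjusted p = 0.206). The further E2F-family matches CMT068C and CMT433C had -1.69 and -0.13 and were not called (edgeR adjusted p = 0.0688 and 0.268). CMT068C was near the floor, at 3.05 ± 1.63 TPM at HC 0 h and 0.98 ± 0.96 TPM at LC 24 h.

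Genes of chromosome segregation were lower in 7 and higher in 1 of 21 cases at LC 24 h (median -0.55), and the lower share was close to the 30.3% of all tested genes. The count of lower genes was 15 without LC 24 h replicate 1, and 11 by DESeq2. Alpha-tubulin (CMT504C), a building block of microtubules, was at 813 ± 701 TPM at LC 24 h, with libraries spread over 408 to 1623 TPM, against 2784 ± 108 TPM at HC 0 h (log2 change -1.89 ± 0.47, edgeR adjusted p = 0.00469). Tubulin folding cofactor B (CMA036C) changed by -1.44 ± 0.33 (adjusted p = 0.00327).

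Of 5 organelle division genes 4 were lower at LC 24 h than at HC 0 h, with a median of -1.56. The same count was higher in recovery than at LC 24 h. The shares of all tested genes were 30.3% and 24.7%. The 4 are FtsZ matches, relatives of the bacterial division ring protein: CMS004C fell by 1.89 and CMO089C by 1.63 on the log2 scale (edgeR adjusted p = 1.82e-05 and 3.80e-04). CMS004C was at 390.4 ± 65.2 TPM at LC 24 h, against 1355 ± 292 TPM at HC 0 h, and at 1356 ± 87.0 TPM in recovery.

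Over the 7 lists together, 118 genes were tested. Compared with HC 0 h, 56 were lower at LC 24 h (47.5%) and 14 higher (11.9%), where all tested genes had 30.3% lower and 32.7% higher. In recovery against LC 24 h 60 were higher (50.8%) and 10 lower (8.47%), where all tested genes had 24.7% and 24.9%. Limma on TPM gave 48 higher and 21 lower there. Between the times at low CO2, 59 were lower at LC 24 h than at LC 3 h and 8 higher, where all tested genes had 29.5% and 23.7%. By limma on TPM these counts were 52 and 21. In recovery against HC 0 h 2 were higher and 0 lower by edgeR, with 15 higher and 1 lower at an unadjusted p under 0.05, and DESeq2 called 6 higher and 0 lower. The lists were chosen with earlier results of these data known, so these shares are a description.

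Of the 118, 15 were higher and 8 lower at LC 3 h than at HC 0 h. With the replicate number as a block the counts were 27 and 13. By limma on TPM, which turned the balance, they were 10 and 19. Over all tested genes 22.1% were higher and 19.3% lower. The lower count was 5 when any 1 of the HC 0 h libraries or replicate 2 of LC 3 h was left out, 3 when replicate 3 of LC 3 h was, and 14 when its replicate 1 was. Over all tested genes the split between higher and lower at LC 3 h was 1076 and 939, but 861 and 1321 with upper-quartile scaling and 754 and 1586 by limma on TPM. Between LC 24 h and LC 3 h it was 1152 and 1435, but 1422 and 1184 with upper-quartile scaling and 2120 and 814 by limma on TPM. In recovery against LC 24 h it was 1200 and 1213, but 768 and 2011 by limma on TPM.

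None of the markers was among the 5 nearest genes of another marker. Nearest genes are those with the smallest differences of all eligible genes, so their closer likeness to a marker follows from the choice. Likeness was measured as the root-mean-square difference, over 12 libraries, between log2 CPM values set against each gene's HC 0 h mean, among 4566 genes of at least 4 in average log2 CPM. PCNA differed from RNR by 0.439 and from H4 by 0.483, and RNR from H4 by 0.458. In the order of nearness to PCNA, RNR came at place 22 and H4 at place 42. In the order of nearness to RNR, H4 came at place 50. The median over eligible genes was 1.22 for PCNA, 1.28 for RNR and 0.857 for H4.

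Nearest to PCNA were CMI291C, described as replication protein-related (0.236), FAS2 (CMP030C, 0.277), the FtsZ match CMS004C (0.279), the unassigned CMO045C (0.28) and the cyclin match CMI203C (0.287). Nearest to RNR were the unassigned CMR324C (0.175), SLD5 (CMR406C, 0.218), the unassigned CMB086C (0.22) and CMT448C (0.23), and a cytochrome-b5 reductase match, CMT084C (0.239). Nearest to H4 were the unassigned CML263C (0.162), CMI101C of unknown function (0.165), PSF1 (CMR136C, 0.188), ARC5 (CMN262C, 0.195) and the unassigned CMT564C (0.196). PSF1 is, like SLD5, a GINS subunit, and ARC5 is a dynamin-related protein of plastid division in Arabidopsis. The 15 genes were picked for their likeness over the same 12 libraries, so a lower level at LC 24 h and a shared cluster follow from the choice. They lie in cluster 5 of the authors' deposited table, which holds 448 genes, the 4 markers among them.

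**Figure D4:**
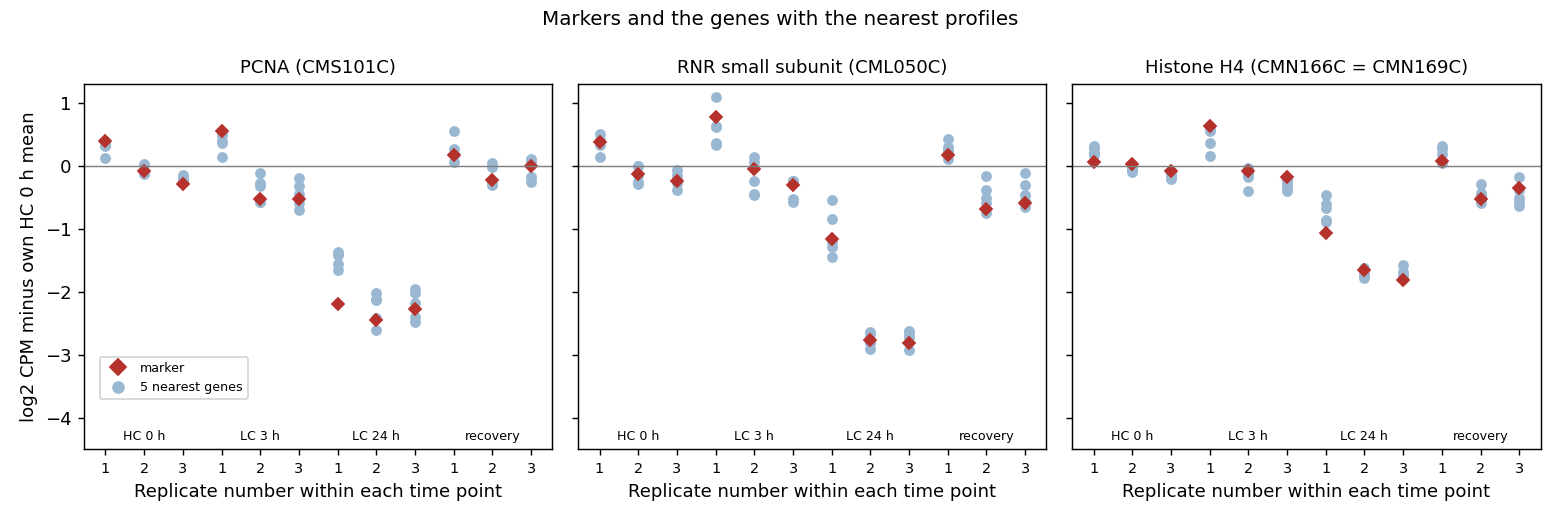
Log2 CPM of each marker (red) and its 5 nearest genes (blue) in each library, set against the gene's own HC 0 h mean, with replicates 1 to 3 side by side within each time point. At LC 24 h the RNR panel shows replicate 1 above the others, while the 3 values of PCNA itself lie close together and those of its nearest genes are higher in replicate 1.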

How the data were processed

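RNA-seq libraries were made with the TruSeq RNA Sample Prep Kit v2 and read as pairs of 100 bases, per the labels' protocols. That kit is known to select poly(A) RNA and to keep no strand, so reads of overlapping or antisense genes cannot be separated. CASAVA 1.8, Bowtie2, RSEM and edgeR are named in the submitters' processing notes. What each did, and which genome build and annotation were used, is not given in the sources used here. Estimated counts and TPM values were deposited per library; 94.0% of count cells were whole and all were rounded before testing. Gene length (an other value), log2 fold changes and q-values are the authors' deposited ones, the last with no stated test. TPM values exist for all but 14 genes. Of the per-sample columns 0 were unmatched.

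All 12 libraries entered 1 edgeR 4.0.16 fit (limma 3.58.1, R 4.3.3) with TMM scaling, the default filter (4865 genes kept, 105 removed) and robust quasi-likelihood F tests, adjusted within each of 5 comparisons. SE was taken as the size of the log2 change over the root of F. Scripts were tested on simulated data. Log2 CPM values carry a prior count of 2. P-values measure the spread between these libraries only, and intervals are not given for single libraries.

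The 4 genes and the 7 word-pattern lists were chosen with earlier results of these data known. Genes named are the markers, the deoxyribonucleotide and histone lists, at most 4 higher and 4 lower genes from each remaining list in a comparison, and the 5 nearest profiles per marker. The MCM2 to MCM7 genes, the gene order around H4, CML054C, CMF110C, CMO145C, CMT038C, CMT067C and CMT433C were added after values were seen. RefSeq names (assembly ASM9120v1) matched 4738 of 4970 identifiers.

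Tried as alternatives were upper-quartile and relative-log-expression scaling, other filters, DESeq2 1.42.0, a replicate block, 2-group fits, limma on log2(TPM + 1), summed H4 copies and leaving out each library. Summing CML050C with CML054C and leaving out replicate 1 of every group were added after seeing the data. Same-numbered libraries deviated together between LC 3 h and HC 0 h (r across genes 0.456, 0.243 and 0.389 for replicates 1, 2 and 3). They also did between recovery and LC 24 h (0.535, 0.212 and 0.482). Some unlike-numbered libraries did as well: r was 0.435 for LC 3 h replicate 2 with HC 0 h replicate 3. For recovery replicates 3 and 2 with LC 24 h replicates 2 and 3 it was 0.456 and 0.260. The remaining unlike-numbered r of these comparisons were negative. These values do not establish a pairing by number. The labels name 3 cultures followed through the shifts but do not say that numbers mark them. In the other comparisons the same-numbered r was below 0.1 for at least 1 number.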

Additional observations from a re-analysis of the deposited data

Results flagged for a closer look

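The response of the markers differed between the 2 times at low CO2. Against HC 0 h, the change at LC 24 h minus the change at LC 3 h was -2.22 for PCNA (CMS101C, edgeR adjusted p = 1.40e-04), -2.24 for RNR (CML050C, adjusted p = 0.00274) and -1.64 for histone H4 (CMN166C and CMN169C alike, adjusted p = 4.12e-04). The difference was tested directly as LC 24 h against LC 3 h, and the LC 24 h libraries were lower in 3 of 3 cases for each gene, without overlap. Overlap was not counted over all tested genes.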

How the results depend on the processing

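The calls of the 4 markers at LC 24 h against HC 0 h, in recovery against LC 24 h and at LC 24 h against LC 3 h held in every alternative run, with log2 changes at LC 24 h against HC 0 h of -2.47 to -2.11 for PCNA, -2.82 to -1.78 for RNR and -1.73 to -1.33 for H4. The highest adjusted p among them was 0.0466, for RNR in recovery against LC 24 h. Leaving out each library gave PCNA at LC 3 h against HC 0 h -0.56 to 0.11, RNR in recovery against HC 0 h -0.67 to -0.13 and H4 -0.44 to -0.14. Without replicate 1 of every group these became -0.34 (PCNA, LC 3 h), -0.45 (RNR) and -0.41 (H4), all called lower, and CMQ195C, a cyclin-dependent kinase match, had 0.20 at LC 3 h (adjusted p = 0.0479), against -0.02 with all libraries. Of 60 other named genes called at LC 24 h against HC 0 h, 46 kept that call in every alternative. Many of them were picked for large called changes or for nearness to the markers, so this share does not speak for all genes.

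Counts over all genes moved as follows. Leaving out each library gave 107 to 471 genes higher and 82 to 442 lower in recovery against HC 0 h (352 and 332 with all), and 743 to 1091 lower at LC 3 h. By limma on TPM, whose median lies -0.15, -0.18 and 0.24 from edgeR's at LC 3 h, in recovery against LC 24 h and at LC 24 h against LC 3 h, they were 1586 lower at LC 3 h, 674 lower in recovery against HC 0 h, 768 higher and 2011 lower in recovery against LC 24 h, and 2120 higher and 814 lower at LC 24 h against LC 3 h. DESeq2 gave 561 lower in recovery against HC 0 h. Without replicate 1 of every group 1427 were lower at LC 3 h, and 1155 higher and 1185 lower in recovery against HC 0 h.

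Counts over the 7 lists moved too. At LC 3 h upper-quartile scaling gave 13 lower, leaving out each library 10 to 16 higher and 3 to 14 lower, and leaving out replicate 1 of every group 40 higher and 26 lower. In recovery against HC 0 h DESeq2 gave 6 higher, leaving out each library 1 to 4, and leaving out replicate 1 of every group 36 higher and 23 lower. At LC 24 h against LC 3 h upper-quartile scaling gave 14 higher, leaving out each library 5 to 8, and leaving out replicate 1 of every group 13 higher and 89 lower. The cause of these shifts was not tested.

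With the replicate number as a block, list counts at LC 3 h were 27 higher and 13 lower, and in recovery against HC 0 h 668 genes were higher and 583 lower, with 15 higher in the lists. The block gave 12 lower genes of chromosome segregation at LC 24 h against HC 0 h, where 7 were called without it. It changed no call of the markers in any comparison: PCNA at LC 24 h against HC 0 h had -2.30 with it.

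Limits: 3 libraries a group, shared reads of the H4 copies and of CML050C, and no later library at constant 5% CO2. LC 24 h replicate 1 stood apart for RNR and for other genes such as SLD5. SLD5 lay -0.85, -2.91 and -2.72 in log2 CPM from its HC 0 h mean in LC 24 h replicates 1, 2 and 3. Without LC 24 h replicate 1, 15 chromosome segregation genes were lower than at HC 0 h, against 7 with all libraries. For cell cycle control it was 16 against 9.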

Other observations

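CML054C, the unassigned gene that shares reads with the RNR gene CML050C, was at 16.7, 24.8 and 48.4 TPM in recovery, against 136, 81.2 and 73.1 TPM at HC 0 h. The groups did not overlap, and the log2 change of -1.58 ± 0.48 missed the threshold (edgeR adjusted p = 0.0511). CML050C over the same groups had 356, 191 and 202 TPM, against 437, 296 and 278 TPM, with overlap. The 2 genes are not neighbours in the RefSeq order, where CML050C lies between CML049C and CML052C. The ETG1 match CMI288C and the CDKA match CME119C were the list genes called higher in recovery than at HC 0 h, at 120 ± 8.52 against 82.8 ± 13.5 TPM and 186 ± 8.90 against 161 ± 6.76 TPM (log2 changes 0.63 and 0.29, edgeR adjusted p = 0.00433 and 0.0217). Without HC 0 h replicate 1, HC 0 h replicate 2, recovery replicate 2 or recovery replicate 3, CME119C was no longer called (adjusted p = 0.0813, 0.0649, 0.0775 and 0.0825).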
